A study of Mus musculus with 20 samples.

Results

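The genes described here encode fibronectin, tenascins, thrombospondins, SPARC and CCN proteins, a set of glycoproteins that fibroblasts secrete into the matrix. The set was named in advance as 10 genes, Fn1, Tnc, Tnxb, Thbs1, Thbs2, Thbs3, Thbs4, Sparc, Ctgf (newer name Ccn2) and Cyr61 (newer name Ccn1). A probe set was used when the array annotation tied it to exactly 1 of these genes, and each gene was represented by whichever of its probe sets had the largest average across the 20 arrays. This gave 9 of the 10 genes, out of 17097 genes measured. Thbs1 had no probe set in the annotation used and was not analysed here.

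Fibroblast RNA of female mice was hybridized, 1 array per mouse and 5 mice in each of 4 groups. Old CR-ND mice began 30% caloric restriction (CR) at 9 months of age, kept to it for 7 months and then ate a normal diet (ND) for 2 months. Old CR mice had the same phases in the other order, 2 months of normal diet and then 7 months of restriction, so they were still restricted at collection. Old ND mice ate the normal diet freely from 9 months of age for 9 months, and all 3 old groups were collected at 18 months. Young ND mice, given as 4 weeks old, ate the normal diet freely for 4 weeks. The sort kept cells carrying Pdgfra and CD34 and lacking CD45, CD117, CD24, CD31 and EpCAM, so the values describe that gate and not the whole dermis. RNA of 10000 sorted cells was amplified before hybridization. Values are levels on the array's log2 scale, differences are log2 fold changes ± their limma standard error (n = 5 arrays a group), and adjusted p is by Benjamini-Hochberg over the 17097 genes, with 0.05 as the threshold.

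Fibronectin is assembled by integrins on the cell surface into fibrils that carry collagen and other matrix proteins. Tenascins, thrombospondins, SPARC and the CCN proteins are called matricellular because they mainly tune how cells attach to and signal from the matrix. In skin they are known from wound repair, when Tnc and Ctgf are strongly induced, and Tnxb is needed for normal collagen organization, since people who lack tenascin-X have loose, fragile skin. Ctgf and Cyr61 are also textbook targets of the mechanosensitive coactivator YAP with TEAD factors.

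Ctgf and Thbs3 were the 2 of 9 genes whose level differed among the 4 groups by limma's moderated F test (adjusted p = 0.00159 for Ctgf and 0.00988 for Thbs3), against 12.9% of all genes called by that test. Between Old ND and Young ND, 1 of 9 genes was called, Ctgf, against 10.9% of all genes. Between Old CR and Old ND, 2 of 9 were called, Thbs3 upward and Ctgf downward, against 2.39% of all genes. Old CR against Young ND gave 1 of 9, a fall of Sparc, where 12.7% of all genes were called, and Old CR-ND against Young ND gave 1 of 9, a rise of Ctgf, where 7.04% were called. With these few genes the shares in the comparisons with Young ND lay near the shares of all genes. Limma called 0 of the 9 genes between Old CR-ND and Old ND, where 3 had an unadjusted p under 0.05 and 0.00585% of all genes were called. It also called 0 of 9 between Old CR-ND and Old CR, where 1 had an unadjusted p under 0.05 and 0.333% of all genes were called. In that comparison 0 of 9 genes had arrays without overlap, against 2.17% of all genes. Over the 9 genes the median difference was -0.08 for Old ND minus Young ND, 0.14 for Old CR minus Old ND, -0.01 for Old CR-ND minus Old ND and 0.08 for Old CR-ND minus Old CR. Over all genes these medians were 0, 0, 0 and -0.01. Comparisons that share a group share its arrays and are not independent of each other.

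**Figure D1:**
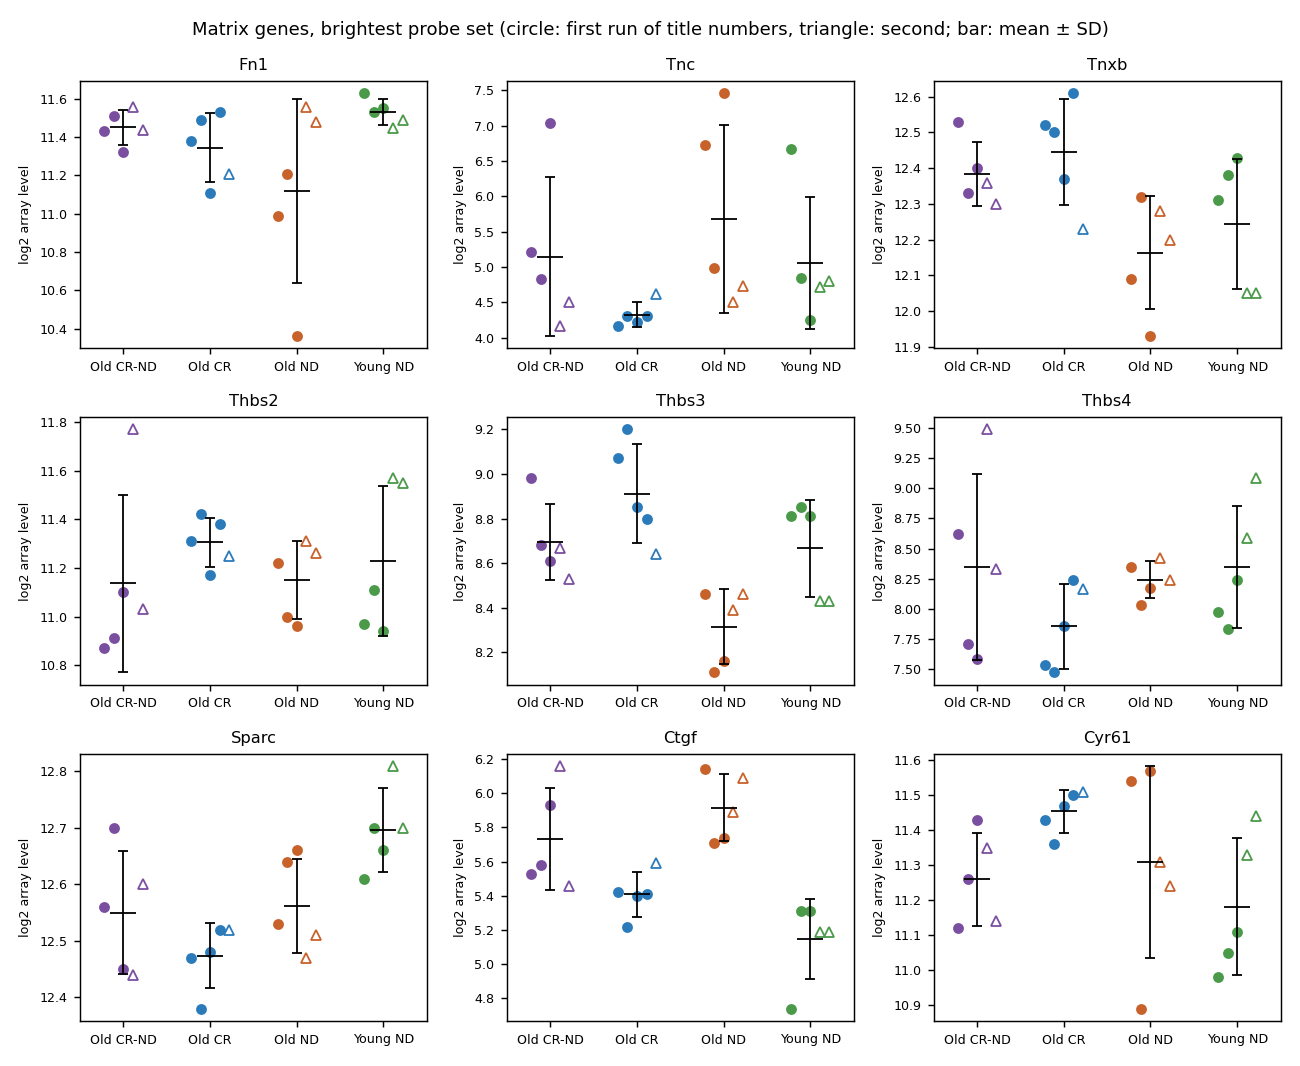
Log2 array level of each of the 9 genes in every array, by group, with the group mean and SD as bars; filled circles are arrays of the first run of title numbers and open triangles those of the second. Ctgf lies highest in Old ND (5.71 to 6.14) and lowest in Young ND (4.74 to 5.31), Thbs3 lies highest in Old CR (8.64 to 9.20) and lowest in Old ND (8.11 to 8.46), and a few arrays stand far above the rest for Tnc.

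The arrays were alike in scale, with array medians between 5.27 and 5.34 and a median within-group SD of 0.15 per gene. The numbers in the sample titles fall into 2 separate runs of 13 and 7 arrays, and the labels do not say what the numbers stand for. The earlier run holds 4 arrays of Old CR and 3 of each other group, and the later run holds 1 and 2. With the groups held, 2934 genes (17.2%) differed between the runs, among them Thbs2 and Thbs4. The second run holds a single Old CR array, so its values for Old CR are given without a test. Cd34 had 11.01 to 11.30 as group means and Col1a1, a main collagen of fibroblasts, 12.83 to 13.33, while Ptprc (CD45) had 3.24 to 3.26 and Kit (CD117) 3.34 to 3.39, near the bottom of the array's scale. Pecam1 (CD31) and Epcam, also sorted against, had higher group means of 5.50 to 5.70 and 5.06 to 5.11. Pdgfra, which the sort required, had group means of 5.71 to 6.20. Cd24a, the gene of a surface marker sorted against, had 5.43 ± 0.43 in Old CR-ND, 4.83 ± 0.15 in Old CR, 5.56 ± 0.30 in Old ND and 6.73 ± 0.49 in Young ND (SD, n = 5 each), and its difference of -1.17 ± 0.21 for Old ND minus Young ND passed the test (adjusted p = 0.000691). Its part in the age differences below was not tested.

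Fn1, fibronectin itself, did not pass the test in any of the 6 comparisons. Its levels were 11.43, 11.51, 11.32, 11.56 and 11.44 in Old CR-ND, 11.38, 11.49, 11.11, 11.53 and 11.21 in Old CR, 10.99, 11.21, 10.36, 11.56 and 11.48 in Old ND, and 11.63, 11.53, 11.55, 11.45 and 11.49 in Young ND. Old ND spread over 1.20 log2 units, whereas the other groups spread over 0.18 to 0.42, and 3 Old ND arrays lay low while the other 2 lay inside the range of Young ND. The Old ND minus Young ND difference was -0.41 ± 0.15, with a 95% interval of -0.73 to -0.09 (adjusted p = 0.0979). All 3 low Old ND arrays belong to the first run of title numbers, where Old ND averaged 10.85 and Young ND 11.57, a difference of -0.72 (adjusted p = 0.0194). In the second run the means were 11.52 for Old ND and 11.47 for Young ND, a difference of 0.05 (adjusted p = 0.92). The change in the age difference from one run to the other was 0.77 ± 0.25 in limma (adjusted p = 0.386). Old CR lay 0.22 ± 0.15 above Old ND (adjusted p = 0.567) and Old CR-ND 0.33 ± 0.15 above it (adjusted p = 0.964).

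Of the tenascins, Tnc, the form induced in wounds and tendon, was low in most arrays and high in a few. Tnc read 5.21, 4.83, 7.04, 4.16 and 4.50 in Old CR-ND, 4.16, 4.31, 4.22, 4.30 and 4.62 in Old CR, 6.72, 4.98, 7.46, 4.50 and 4.73 in Old ND, and 6.67, 4.85, 4.25, 4.72 and 4.80 in Young ND. The 4 high arrays (6.67 to 7.46) were 1 of Old CR-ND, 2 of Old ND and 1 of Young ND, all in the first run, and Old CR held no such array. The pooled within-group SD of 0.99 left wide intervals, and the Old CR minus Old ND difference of -1.36 ± 0.56 had an interval of -2.52 to -0.19 (adjusted p = 0.246). Old ND minus Young ND was 0.62 ± 0.56 over all arrays (adjusted p = 0.579), with 1.13 within the first run, against -0.15 within the second. The second Tnc probe set stayed near the bottom of the scale, with group means of 3.12 to 3.18.

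The 3 high Tnc arrays outside Old CR-ND were also the highest for Tnmd, a tendon and fascia gene that encodes tenomodulin. Tnmd read 10.08, 9.73, 7.29, 8.65 and 8.40 in Old CR-ND, 7.33, 7.63, 7.63, 7.25 and 7.27 in Old CR, 10.38, 8.96, 10.93, 8.48 and 8.13 in Old ND, and 10.86, 9.78, 9.77, 9.68 and 9.77 in Young ND. The Old CR-ND array with a Tnc level of 7.04 had a Tnmd level of only 7.29. Tnmd fell in Old CR against Old ND by 1.95 on the log2 scale (SE 0.49, adjusted p = 0.0373). Of the 5 tendon and fascia genes listed (Tnmd, Scx, Mkx, Comp and Fmod), all measured, Tnmd alone passed in that comparison, against 2.39% of all genes. Fmod averaged 6.57 in Old CR and 7.19 in Old ND. The other means lay slightly higher in Old CR, with 5.65 in Old CR and 5.47 in Old ND for Scx, 5.44 in Old CR and 5.33 in Old ND for Mkx, and 4.03 in Old CR and 3.97 in Old ND for Comp. The median difference of the 5 genes was 0.06. The mean of the 5 spanned 5.75 to 6.67 in Old CR-ND, 5.63 to 5.98 in Old CR, 5.64 to 7.19 in Old ND and 5.99 to 7.02 in Young ND. Its part in the Tnc levels was not tested. In sorted bulk samples, fewer cells of a type and less RNA per cell cannot be told apart.

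**Figure D2:**
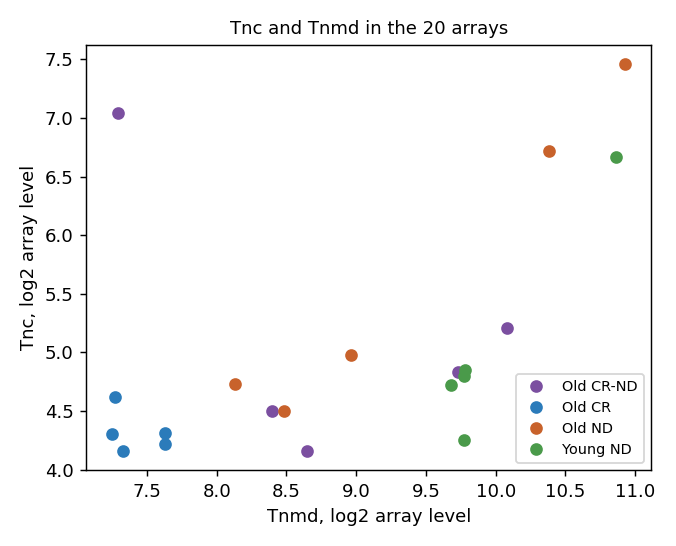
Tnc level (vertical axis, log2) against Tnmd level (horizontal axis, log2) in the 20 arrays, coloured by group. The Old ND arrays with Tnc at 6.72 and 7.46 and the Young ND array at 6.67 lie at the right end for Tnmd, the Old CR-ND array at 7.04 lies at the left end, and the 5 Old CR arrays sit together at the low end of both axes.

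Tnxb, the tenascin of settled dermis, varied little, with group means of 12.38 ± 0.09 in Old CR-ND, 12.45 ± 0.15 in Old CR, 12.16 ± 0.16 in Old ND and 12.24 ± 0.18 in Young ND (SD, n = 5 each). Old CR minus Old ND was 0.28 ± 0.09, with an interval of 0.09 to 0.48 (adjusted p = 0.126). The arrays of these groups overlapped, 12.23 to 12.61 in Old CR against 11.93 to 12.32 in Old ND. Within the first run the difference was 0.39 (adjusted p = 0.0382), and in the second, with 1 Old CR array, it was -0.01. Old ND minus Young ND was -0.08 ± 0.09 over all arrays (adjusted p = 0.69), with -0.26 within the first run, against 0.19 within the second.

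Thbs3, one of the thrombospondins that assemble as pentamers, rose in Old CR relative to Old ND by 0.60 ± 0.12, or 1.51-fold (adjusted p = 0.01). It read 8.98, 8.68, 8.61, 8.67 and 8.53 in Old CR-ND, 9.07, 9.20, 8.85, 8.80 and 8.64 in Old CR, 8.46, 8.11, 8.16, 8.39 and 8.46 in Old ND, and 8.81, 8.85, 8.81, 8.43 and 8.43 in Young ND. Every Old CR array and every Old CR-ND array lay above every Old ND array. The share of all genes whose arrays do not overlap was 3.23% for Old CR against Old ND and 0.48% for Old CR-ND against Old ND. The Old CR-ND minus Old ND difference was 0.38 ± 0.12 with an interval of 0.13 to 0.62, and it did not pass after adjustment (adjusted p = 0.728). The groups ran from Old CR (mean 8.91) through Old CR-ND (8.69) and Young ND (8.67) to Old ND (8.32), and no neighbours in that order differed past the threshold: -0.22 ± 0.12 for Old CR-ND minus Old CR (adjusted p = 0.579), 0.03 ± 0.12 for Old CR-ND minus Young ND (adjusted p = 0.944) and -0.35 ± 0.12 for Old ND minus Young ND (adjusted p = 0.063).

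The age difference of Thbs3 was also larger in the first run. There Old ND averaged 8.24 and Young ND 8.82, a difference of -0.58 (adjusted p = 0.0127), and in the second run both averaged 8.43. With the run as a block in the fit, the pooled -0.35 passed (adjusted p = 0.0333), and the change between runs was 0.58 ± 0.19 (adjusted p = 0.396). Old CR minus Old ND was 0.74 in the first run (adjusted p = 0.00502) and 0.22 in the second, where Old CR had 1 array.

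The Thbs3 promoter is shown because this gene moved with restriction; it is the RefSeq sequence of GRCm38.p6 at chr3:89214930-89215229, plus strand, 250 bases before and 50 after the start of the gene. Capitals mark matches on either strand to CCAAT, the box bound by NF-Y (first base at position -98 from the start), and to GGGCGG, the GC box bound by SP1 (first base at -21). CCAAT was found in 37.4% and GGGCGG in 35.7% of the 32851 mouse promoters of that length. The window held no CATTCC, the TEAD motif, no TGANTCA, the AP-1 motif, and no TATAAA.
Thbs3: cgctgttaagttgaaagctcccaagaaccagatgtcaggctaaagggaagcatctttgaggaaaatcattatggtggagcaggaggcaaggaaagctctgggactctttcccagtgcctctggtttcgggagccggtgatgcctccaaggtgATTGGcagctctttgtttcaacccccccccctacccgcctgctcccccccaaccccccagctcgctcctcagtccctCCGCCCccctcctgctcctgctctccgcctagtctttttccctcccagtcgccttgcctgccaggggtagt

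Thbs2, which binds matrix proteases and is known in mice for its role in collagen fibril shape, did not pass the test in any comparison. Its group means were 11.14 ± 0.37 in Old CR-ND, 11.31 ± 0.10 in Old CR, 11.15 ± 0.16 in Old ND and 11.23 ± 0.31 in Young ND (SD, n = 5 each), with adjusted p from 0.725 to 0.998. Its second probe set gave group means of 9.86 to 10.10 and no call either. Thbs4, a thrombospondin of tendon and muscle, had 8.35 ± 0.77 in Old CR-ND, 7.85 ± 0.35 in Old CR, 8.24 ± 0.15 in Old ND and 8.34 ± 0.51 in Young ND (SD, n = 5 each), and its Old CR minus Old ND difference was -0.39 with an interval of -0.98 to 0.20. Both genes were higher in the second run with the groups held, Thbs2 by 0.32 (adjusted p = 0.0177) and Thbs4 by 0.59 (adjusted p = 0.0202). For Old ND minus Young ND, Thbs2 differed by 0.05 within the first run, against -0.28 within the second. That of Thbs4 was 0.17 (first run) and -0.51 (second run).

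**Figure D3:**
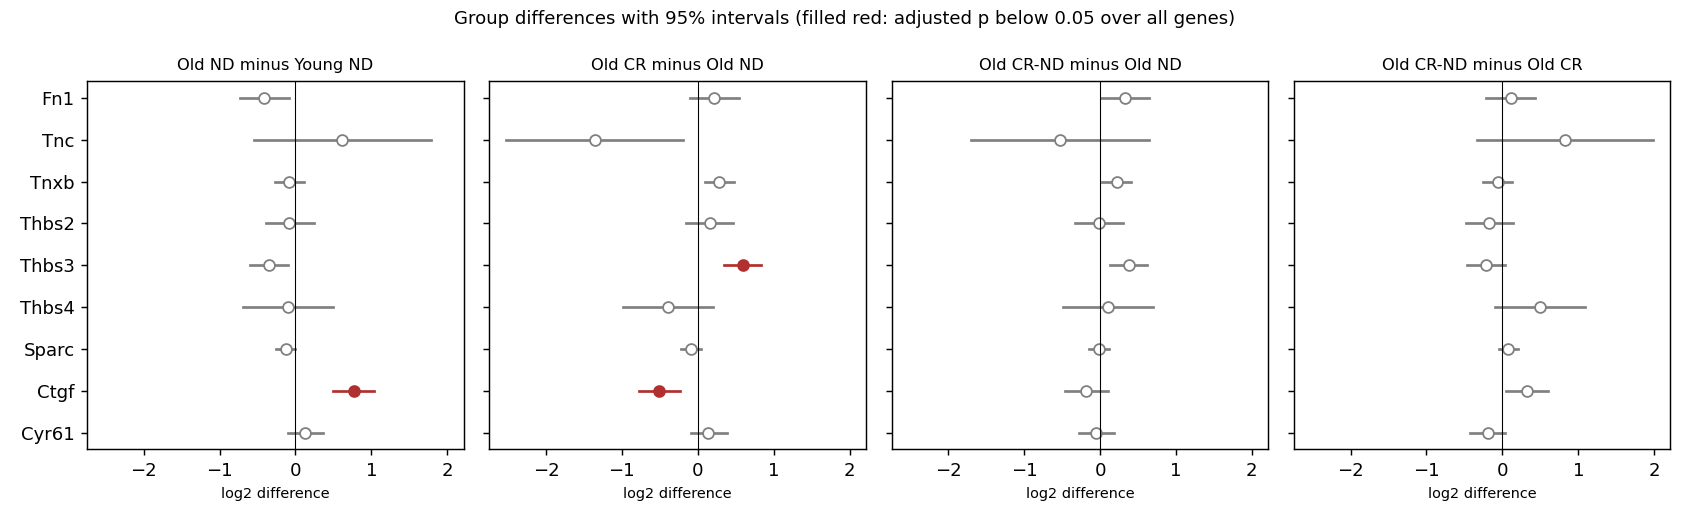
Log2 difference of each gene in 4 comparisons (horizontal axis) with its 95% interval; filled red points passed an adjusted p of 0.05 over all genes. The red points are Ctgf for Old ND minus Young ND (0.77), and Thbs3 (0.60) and Ctgf (-0.51) for Old CR minus Old ND; the intervals of Tnc are the widest.

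Sparc, the collagen-binding glycoprotein osteonectin, was lower in each old group than in Young ND by 1 of its 2 probe sets. By the other, less bright probe set it read 12.44, 12.47, 11.93, 12.16 and 12.22 in Old CR-ND, 12.08, 12.14, 12.09, 12.14 and 12.13 in Old CR, 12.30, 12.25, 12.44, 12.14 and 12.00 in Old ND, and 12.99, 12.97, 12.85, 12.93 and 12.90 in Young ND. All 15 old arrays lay below all 5 young arrays. Over all genes by their brightest probe set, arrays did not overlap with Young ND for 6.59% (Old CR-ND), 10.4% (Old CR) and 7.38% (Old ND). In a limma fit of all 28898 probe sets that name 1 gene, adjusted over them, the differences were -0.68 ± 0.09 for Old CR-ND minus Young ND (adjusted p = 5.8e-05), -0.81 ± 0.09 for Old CR minus Young ND (adjusted p = 4.74e-06) and -0.70 ± 0.09 for Old ND minus Young ND (adjusted p = 2.23e-05). That fit called 6.54%, 12.2% and 10.7% of all probe sets in these comparisons. In the first run its means were 12.33 for Old ND and 12.94 for Young ND, and in the second 12.07 for Old ND and 12.91 for Young ND.

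The brighter Sparc probe set, which represents the gene by the rule, showed smaller differences. It read 12.56, 12.70, 12.45, 12.44 and 12.60 in Old CR-ND, 12.47, 12.38, 12.48, 12.52 and 12.52 in Old CR, 12.53, 12.64, 12.66, 12.47 and 12.51 in Old ND, and 12.61, 12.70, 12.66, 12.81 and 12.70 in Young ND. Its difference was -0.22 ± 0.06 for Old CR minus Young ND (adjusted p = 0.0216), the only call for this probe set, and these arrays did not overlap, as for 10.4% of all genes. Without Old CR replicate 2 the adjusted p was 0.0609, and without Young ND replicate 4 it was 0.0668. Old ND minus Young ND was -0.13 ± 0.06 (adjusted p = 0.203) and Old CR-ND minus Young ND -0.15 ± 0.06 (adjusted p = 0.194). Why the probe sets differ was not tested, and the files do not say which part of the transcript each one reads. Among the old groups neither probe set passed: by the less bright one, Old CR minus Old ND was -0.11 ± 0.09, Old CR-ND minus Old ND 0.02 ± 0.09 and Old CR-ND minus Old CR 0.13 ± 0.09, where the fit called 2.13%, 0.0381% and 0.197% of all probe sets.

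**Figure D4:**
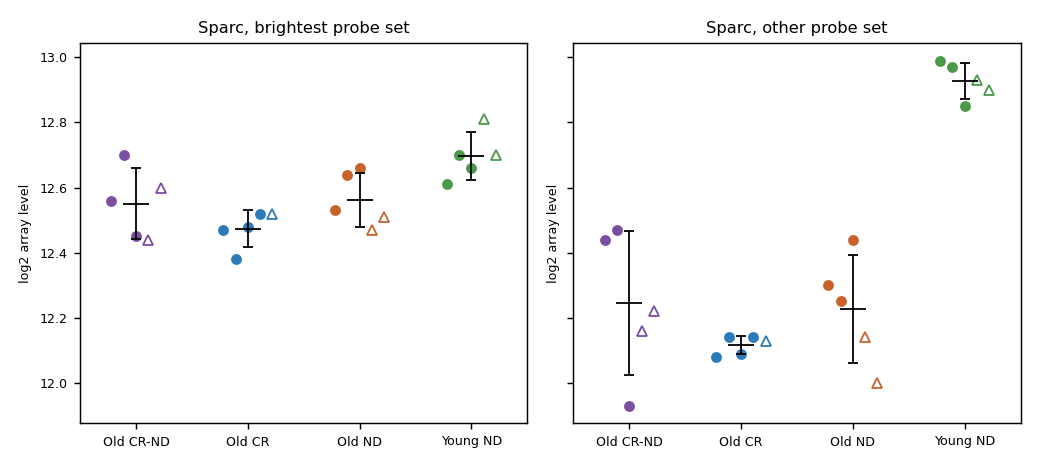
Log2 array level of Sparc by its brightest probe set (left) and its other probe set (right) in every array, with group means and SD as bars; filled circles are arrays of the first run and open triangles those of the second. On the right the Young ND arrays (12.85 to 12.99) lie above all old arrays (11.93 to 12.47), and on the left the groups lie closer together.

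Ctgf, the CCN protein known for promoting matrix production, rose in Old ND relative to Young ND by 0.77 ± 0.13, or 1.7-fold (adjusted p = 0.000506). It was read by 1 probe set, whose mean level of 5.55 lay below the median of 5.88 over all genes. Ctgf read 5.53, 5.58, 5.93, 6.16 and 5.46 in Old CR-ND, 5.42, 5.22, 5.40, 5.41 and 5.59 in Old CR, 6.14, 5.71, 5.74, 5.89 and 6.09 in Old ND, and 4.74, 5.31, 5.31, 5.19 and 5.19 in Young ND. All Old ND arrays lay above all Young ND arrays. The arrays of these groups did not overlap, in either direction, for 7.38% of all genes. The difference was close in both runs, 0.74 in the first (adjusted p = 0.0114) and 0.80 in the second (adjusted p = 0.0405), and it passed with each array left out in turn (adjusted p from 0.000662 to 0.00215). Old CR-ND also lay above Young ND without overlap, by 0.58 ± 0.13 or 1.5-fold (adjusted p = 0.0084), where 6.59% of all genes had no overlap. In the first run alone that difference was 0.56 (adjusted p = 0.0717) and in the second 0.62 (adjusted p = 0.145).

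For Ctgf, again no array of Old CR overlapped with Old ND, as for 3.23% of all genes. Ctgf fell in Old CR by 0.51 on the log2 scale against Old ND (SE 0.13, adjusted p = 0.0482). This call was close to the threshold: it was lost in 8 of 10 fits that left out 1 array of these groups, those without any of Old CR replicates 1 to 4 or without Old ND replicate 1, 3, 4 or 5, where adjusted p reached 0.126. By run the difference was -0.50 (first, adjusted p = 0.086) and -0.40 (second, with 1 Old CR array). Old CR minus Young ND was 0.26 ± 0.13 (interval -0.02 to 0.54, adjusted p = 0.24). Old CR-ND lay between Old CR and Old ND, 0.32 ± 0.13 above Old CR (interval 0.05 to 0.60, adjusted p = 0.394) and -0.18 ± 0.13 from Old ND (interval -0.46 to 0.10, adjusted p = 0.998).

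Cyr61, the immediate early CCN protein, did not pass in any comparison. It read 11.12, 11.26, 11.43, 11.35 and 11.14 in Old CR-ND, 11.43, 11.36, 11.47, 11.50 and 11.51 in Old CR, 11.54, 10.89, 11.57, 11.31 and 11.24 in Old ND, and 10.98, 11.05, 11.11, 11.33 and 11.44 in Young ND. Old CR arrays sat close together at the upper end, and the other groups overlapped with them. Its difference was 0.13 ± 0.11 for Old ND minus Young ND (interval -0.10 to 0.36, adjusted p = 0.561; by run, 0.29 in the first but -0.11 in the second), and 0.14 ± 0.11 for Old CR minus Old ND (interval -0.09 to 0.38, adjusted p = 0.628). Its second probe set gave 0.05 ± 0.11 and 0.20 ± 0.11 for the same comparisons, with no call. The largest difference of Cyr61 was 0.27 ± 0.11, for Old CR minus Young ND (interval 0.04 to 0.50, adjusted p = 0.126). By the second probe set that difference was 0.25 ± 0.11 (interval 0.02 to 0.49), also without a call.

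The Cyr61 promoter is shown for comparison, as that of a YAP and TEAD target whose level did not pass. Promoters of Ctgf and Fn1 were not among the sequences available here. The Cyr61 promoter lies at chr3:145649936-145650235, minus strand, in RefSeq GRCm38.p6, and is written in the direction of the gene. Capitals mark, from the left, GGGCGG on the other strand, the TEAD motif CATTCC (first base at position -103 from the start), and TATAAA with GGGCGG directly after it. CATTCC was found in 14.7% and TATAAA in 13.6% of all mouse promoters of that length. Of the 7 genes with a promoter sequence, CATTCC was also found for Thbs4, as 2 overlapping matches that start at -197 and -192.
Cyr61: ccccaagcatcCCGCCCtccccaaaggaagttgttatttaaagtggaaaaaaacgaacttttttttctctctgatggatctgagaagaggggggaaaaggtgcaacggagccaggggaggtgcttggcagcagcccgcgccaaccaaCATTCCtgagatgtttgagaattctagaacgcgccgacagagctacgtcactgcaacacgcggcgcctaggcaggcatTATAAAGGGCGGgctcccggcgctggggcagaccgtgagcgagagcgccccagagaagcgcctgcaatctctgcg

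Of 14 other genes of these families, 13 were measured, and the one that moved with restriction was Ccn5 (older name Wisp2), a CCN protein without the C-terminal domain that Ctgf and Cyr61 carry. Ccn5 read 7.67, 7.77, 7.42, 8.01 and 7.98 in Old CR-ND, 6.94, 6.61, 6.57, 6.98 and 7.01 in Old CR, 7.96, 7.95, 7.37, 7.49 and 8.14 in Old ND, and 7.60, 7.94, 8.33, 7.55 and 7.96 in Young ND. All Old CR arrays lay below all arrays of the other groups. Old CR arrays did not overlap with Old CR-ND for 2.17% of all genes, with Old ND for 3.23% and with Young ND for 10.4%. Ccn5 fell in Old CR against Old ND by 0.96 on the log2 scale (SE 0.16, adjusted p = 0.00393), and it was 0.95 ± 0.16 higher in Old CR-ND than in Old CR (adjusted p = 0.00973). Of all genes 2.39% and 0.333% were called in these comparisons. The second difference lost its call without Old CR replicate 3 (adjusted p = 0.0534). It was 0.85 in the first run (adjusted p = 0.0912) and 0.98 in the second, with 1 Old CR array. Old ND minus Young ND was -0.09 ± 0.16 (adjusted p = 0.804) and Old CR-ND minus Old ND -0.01 ± 0.16 (interval -0.35 to 0.33).

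With age on the normal diet, 1 of these 13 genes rose and 2 fell, against 10.9% of all genes called. The riser was Sparcl1, a relative of Sparc (0.52 ± 0.16, adjusted p = 0.0409). Ccn3 fell by 1.07 on the log2 scale (SE 0.30, adjusted p = 0.0221), with -0.26 in the second run alone (adjusted p = 0.441), and Fstl1, a secreted follistatin-like protein, fell by 0.20 (SE 0.06, adjusted p = 0.022). Leaving out single arrays brought these adjusted p to at most 0.116, 0.0664 and 0.0664. In Old CR against Young ND, Spock2 rose (0.38 ± 0.12, adjusted p = 0.0414) and Ccn5 fell by 1.05 (adjusted p = 0.000157). Of all genes 12.7% were called in that comparison. The Spock2 call was lost in 9 of 10 fits with 1 array left out (adjusted p up to 0.115).

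**Figure D5:**
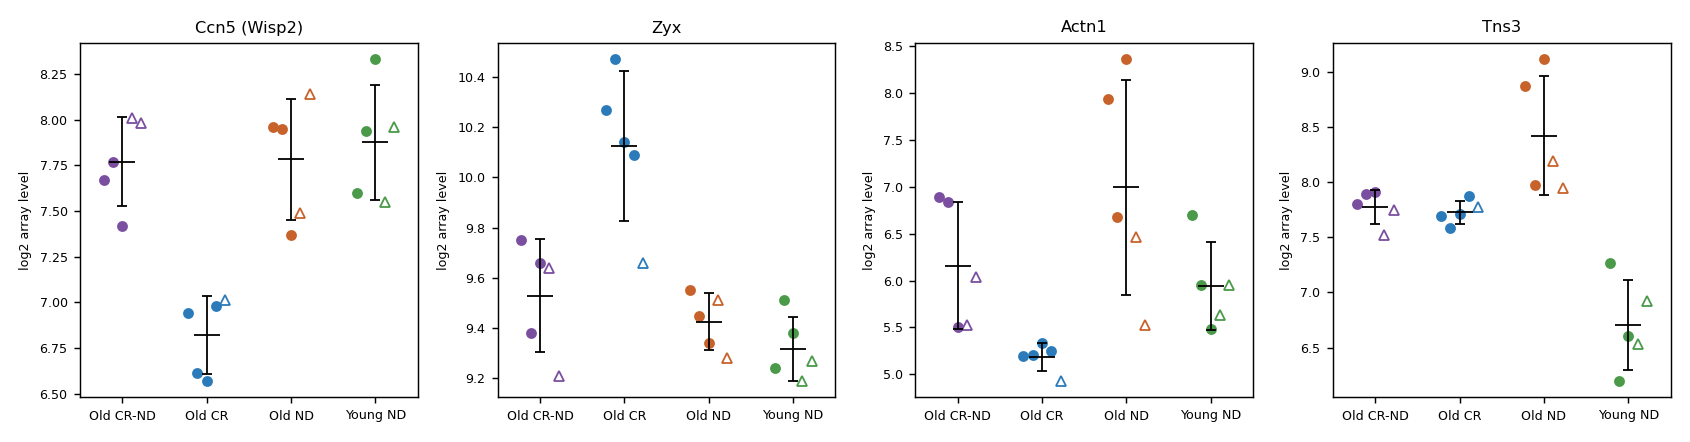
Log2 array levels of Ccn5, Zyx, Actn1 and Tns3 in every array, by group, with group means and SD as bars; filled circles are arrays of the first run and open triangles those of the second. Ccn5 is lowest in Old CR (6.57 to 7.01), Zyx is highest there (9.66 to 10.47), Actn1 is lowest and tightest there (4.93 to 5.33), and Tns3 is lowest in Young ND (6.20 to 7.27).

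Among genes for receptors of these proteins, 18 of 19 listed were measured, and between Old ND and Young ND 2 rose and 2 fell, against 10.9% of all genes called. Cacna2d1, a thrombospondin receptor known from neurons, rose by 0.46 ± 0.09 (adjusted p = 0.00219), and Cd47, a receptor of thrombospondin-1, by 0.31 ± 0.07 (adjusted p = 0.00573). Sdc4, a syndecan that binds fibronectin, fell by 0.40 (SE 0.09, adjusted p = 0.00573), and the integrin subunit Itga2b, best known from platelets, by 0.34 (SE 0.10, adjusted p = 0.0284). Limma called 2.39% of all genes (Old CR against Old ND), 0.00585% (Old CR-ND against Old ND) and 0.333% (Old CR-ND against Old CR). Of the 18 receptor genes it called 0 in these comparisons among the old groups. An unadjusted p under 0.05 was reached by 3 between Old CR and Old ND, by 2 between Old CR-ND and Old ND and by 4 between Old CR-ND and Old CR. In the first of these the smallest p belonged to Itga9, a tenascin receptor subunit (0.32 ± 0.09, adjusted p = 0.0621), and Itga8 (-1.37 ± 0.39, adjusted p = 0.0711). Against Young ND, 3 receptor genes rose and 3 fell in Old CR, where 12.7% of all genes were called. In Old CR-ND against Young ND 1 rose and 1 fell, where 7.04% of all genes were called. Without single arrays the Itga2b call for Old ND against Young ND was lost in 6 of 10 fits (adjusted p up to 0.0867).

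Of 17 genes of integrin adhesion and fibril assembly, 15 were measured, and 1 rose and 1 fell between Old CR and Old ND, against 2.39% of all genes called. Zyx, the adhesion protein zyxin, read 9.75, 9.38, 9.66, 9.64 and 9.21 in Old CR-ND, 10.27, 10.47, 10.14, 10.09 and 9.66 in Old CR, 9.55, 9.45, 9.34, 9.51 and 9.28 in Old ND, and 9.24, 9.51, 9.38, 9.19 and 9.27 in Young ND. It rose by 0.70 ± 0.12 in Old CR against Old ND (adjusted p = 0.0047), with no overlap, as for 3.23% of all genes. Its difference was -0.60 ± 0.12 for Old CR-ND minus Old CR (adjusted p = 0.0392). The call between Old CR-ND and Old CR was lost in 7 of 10 fits, those without Old CR replicate 1, 2, 3 or 4 or without Old CR-ND replicate 2, 4 or 5 (adjusted p up to 0.125). For Old CR minus Old ND, Zyx differed by 0.27 in the second run alone, with 1 Old CR array, and the mean of all Zyx probe sets gave 0.42.

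Actn1, the actin cross-linker alpha-actinin 1, read 6.89, 6.84, 5.50, 5.53 and 6.04 in Old CR-ND, 5.19, 5.21, 5.33, 5.25 and 4.93 in Old CR, 7.94, 6.68, 8.36, 6.46 and 5.53 in Old ND, and 6.70, 5.95, 5.48, 5.63 and 5.95 in Young ND. It fell in Old CR against Old ND by 1.81 on the log2 scale (SE 0.40, adjusted p = 0.0199). Old ND replicates 1 and 3, the highest for Actn1, were also the highest of their group for Tnc, Tnmd and Tns3. Without Old ND replicate 1 the adjusted p was 0.0572 and without Old ND replicate 3 it was 0.051, and the mean of all Actn1 probe sets gave -0.92. Between Old ND and Young ND 1 of the 15 rose and 1 fell, against 10.9% of all genes called. Tns3, the adhesion protein tensin 3, rose by 1.71 ± 0.20 (adjusted p = 7.28e-06), and the mean of its probe sets gave 0.89. Its arrays spanned 7.95 to 9.11 in Old ND against 6.20 to 7.27 in Young ND, without overlap, as for 7.38% of all genes. Src, the kinase of focal adhesions, fell by 0.62 (SE 0.12, adjusted p = 0.0012).

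Of 20 other YAP and TEAD targets, 18 were measured. Between Old ND and Young ND, where Ctgf rose, 2 rose and 0 fell, against 10.9% of all genes called: Gadd45b, a stress response gene, by 0.43 ± 0.11 (adjusted p = 0.0106) and F3, tissue factor, by 0.29 ± 0.08 (adjusted p = 0.0298). F3 lay near the bottom of the array's scale, with group means of 3.24 in Young ND and 3.53 in Old ND. The median difference of the 18 was 0.09, against 0 over all genes, and 8 had an unadjusted p under 0.05. Between Old CR and Old ND, 1 rose and 1 fell, against 2.39% of all genes called. In that comparison 7 of the 18 had an unadjusted p under 0.05, and their median difference was -0.01. Nt5e, the surface enzyme CD73, rose by 0.68 ± 0.13 (adjusted p = 0.00877), and Fjx1 fell by 0.31 (SE 0.08, adjusted p = 0.0302). Nt5e differed by 0.25 in the second run alone, with 1 Old CR array. With 1 array left out, the F3 and Fjx1 calls were each lost in 6 of 10 fits (adjusted p up to 0.0892 and 0.0886), and the mean of the Fjx1 probe sets gave -0.15.

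Of 22 immediate early genes, a class that also takes in Cyr61 and that cell dissociation is known to induce, 21 were measured. Between Old ND and Young ND 3 rose and 1 fell, against 10.9% of all genes called: Egr2 by 0.84 ± 0.13 (adjusted p = 0.000153), Nr4a2 by 0.71 ± 0.15 (adjusted p = 0.00277) and Ier3 by 0.34 ± 0.09 (adjusted p = 0.0178), whereas Klf6 fell by 0.32 (SE 0.09, adjusted p = 0.0299). The Klf6 call was lost in 6 of 10 fits with 1 array left out (adjusted p up to 0.0897). Between Old ND and Young ND 10 of the 21 had an unadjusted p under 0.05, and their median difference was 0.13, against 0 over all genes. For Old CR minus Old ND 4 had such a p, and the median difference was -0.06, against 0 over all genes. Egr2, a zinc finger factor, was the 1 gene of this list called between Old CR and Old ND, against 2.39% of all genes. It fell there by 0.64 (SE 0.13, adjusted p = 0.0119), with -0.25 in the second run alone, with 1 Old CR array. Egr2 therefore passed in the same directions as Ctgf in both comparisons, which share the Old ND arrays. Its part in the Ctgf levels was not tested.

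The genes whose level was most like that of Thbs3 over the 20 arrays were G6pd2 (Pearson r = 0.89) and Bcar3 (r = 0.88). G6pd2 averaged 8.25 in Old CR-ND, 8.61 in Old CR, 7.99 in Old ND and 8.13 in Young ND, and Bcar3 averaged 7.14 in Old CR-ND, 7.46 in Old CR, 6.66 in Old ND and 7.41 in Young ND. For Ctgf they were Brd2 (r = 0.86) and Sephs2 (r = 0.82). Brd2 averaged 8.78 in Old CR-ND, 8.66 in Old CR, 8.77 in Old ND and 8.34 in Young ND. These r are descriptions over arrays that share groups and runs.

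Of 7 keratinocyte marker genes limma called 0 in each of the 6 comparisons, where it called 0.00585% to 12.7% of all genes. Of these 7 genes, 0 to 1 had an unadjusted p under 0.05. Their mean per array spanned 6.98 to 8.04 in Old CR-ND, 6.84 to 7.51 in Old CR, 6.18 to 8.54 in Old ND and 6.48 to 7.74 in Young ND. Their median difference was 0.48 for Old CR-ND minus Old ND, 0.40 minus Old CR and 0.51 minus Young ND. It was 0.19 for Old ND minus Young ND, 0.12 for Old CR minus Old ND and -0.06 for Old CR minus Young ND. Over all genes these medians were -0.01 to 0. Krt5 had group means of 8.69 to 9.36 and Krt14 of 6.55 to 7.50, above the median of 5.88 over all genes. Between Old CR and Old ND, 0 of 6 endothelial genes, 0 of 5 platelet genes, 0 of 5 measured pericyte and smooth muscle genes, 0 of 2 measured Schwann cell genes, 0 of 2 measured fat cell genes and 0 of 8 fibroblast markers were called, and 1 of 7 immune genes fell. Over all genes 2.39% were called in that comparison. An unadjusted p under 0.05 was reached there by 1 endothelial gene, 2 fibroblast markers and 3 immune genes. It was reached by 0 genes of the platelet, pericyte, Schwann cell and fat cell lists. Between Old ND and Young ND 2 of 8 fibroblast markers fell, Col1a1 by 0.48 (adjusted p = 0.000264) and Cd34 by 0.30 (adjusted p = 0.0303), beside 1 endothelial gene that rose, 1 immune gene that rose and 1 that fell, and 1 gene that fell in each of the platelet and the pericyte lists. Of the tendon and fascia genes 1 rose there, Mkx, by 0.77 (adjusted p = 0.0196). The platelet gene that fell was Itga2b, also counted above among the receptor genes. Over all genes 10.9% were called between Old ND and Young ND. The part of these genes in the age differences of Ctgf and Sparc was not tested.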

How the data were processed

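Each of the 20 samples is 1 array of a different mouse. The authors deposited log2 values, 1 per probe set and array, made with RMA from the affy package per the submitters' processing notes, with versions not given in the sources used here. RMA corrects background, normalizes arrays by quantiles and summarises probes by median polish, so a change shared by all genes would not show. Values lie between 2.71 and 13.46. Arrays have no read depth, and their number limits the precision (median standard error of a difference 0.10).

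Of 45141 probe sets, 28898 name 1 gene, 551 several and 15692 none in the platform annotation. Only those with 1 gene were used. Symbols were updated through Entrez numbers against RefSeq GRCm38.p6, which matched 28689 probe sets. This left 17097 genes, each read from its brightest probe set (by its mean across arrays), with no filter on dim genes.

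Groups came from the labels. The 20 arrays entered 1 linear model in limma 3.58.1 (lmFit, eBayes; R 4.3.3) with a mean for each group, leaving 16 residual degrees of freedom beside 4.19 from the prior, and without covariates. Tests were two-sided, with Benjamini-Hochberg over all genes. Differences are first-named minus second-named group, intervals are 95%, and 0 pairs of arrays held identical values. Per the labels a collection day held mice of several groups, but no label gives the day of each mouse, so day was not used here. The pipeline was tested on simulated data.

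The genes, the lists and the comparisons were chosen with earlier results of these data known. All genes of the set are named. From each list, a comparison names at most 4 called genes, by ascending adjusted p, or at most 2 uncalled ones where none was called, and for genes past the F test up to 2 genes with the highest Pearson r. Cd24a, Ptprc, Kit, Pecam1, Epcam, Pdgfra, Krt5, Krt14 and the tendon genes are given as markers. Alternatives were other rules for probe sets, a filter on dim genes, other scalings, array weights, a trended and robust eBayes, fits of the compared groups alone, each run alone or as a block, other thresholds and each array left out. The test of a changing age difference between runs was added after the data were seen. Promoters are 300 bases from RefSeq, found for 7 of 11 genes looked for, and were searched on both strands.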

Additional observations from a re-analysis of the deposited data

Results flagged for a closer look

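In groups of 5 arrays, the highest or lowest array was looked at again where its gap to the nearest other array was a large share of the group's range (Dixon's ratio above 0.71). This held in 3 of 36 groups (9 genes in 4 groups), where chance alone would be expected to give about 1 in 20. Tnc in Young ND replicate 1 was 6.67, and the next array of that group was 4.85. Thbs2 in Old CR-ND replicate 4 was 11.77, with the next at 11.10. Ctgf in Young ND replicate 1 was 4.74, below the next at 5.19. With each array left out in turn, that Young ND array included, the Ctgf difference for Old ND minus Young ND stayed between 0.66 and 0.82.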

How the results depend on the processing

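No difference of a gene of the set changed direction while called. Between Old ND and Young ND, where Ctgf was the 1 call, 2 genes were called when probe sets of a gene were averaged and with every probe set (Sparc joins, at -0.42 and -0.70), with array medians centred and with the run as a block (Thbs3 joins), and 3 in the first run (Fn1 and Thbs3 join) and at a threshold of 0.10. Leaving out 1 array gave 1 to 2. Between Old CR and Old ND the 2 calls became 1 with every probe set, with genes above the median mean (which leaves out Ctgf and Tnc), with quantile normalization once more and with medians centred, because Ctgf had an adjusted p of 0.0522, 0.0645 and 0.0577 in the settings that kept it. They became 0 in the second run, where Old CR has 1 array assumed to vary like the others, and at a threshold of 0.01. Leaving out 1 array gave 1 to 2. For Old CR against Young ND, 1 call became 2 with array weights (Cyr61 joins) and 0 in either run alone and at a threshold of 0.01, and leaving out 1 array gave 0 to 1. For Old CR-ND against Young ND, 1 call became 2 with the mean of probe sets and with every probe set, and 0 with genes above the median mean and in either run alone. The F test called 2 genes as reported, 3 with averaged probe sets, every probe set, medians centred and a threshold of 0.10 (Sparc joins), 1 above the median mean and 0 in the second run. Apart from the genes, probe sets or arrays that a setting leaves out or adds, the cause was not tested. Comparisons of Old CR-ND with Old ND and with Old CR gave 0 calls in the set under every alternative. Over all genes, calls ranged from 1029 to 2625 for Old ND against Young ND (1870 as reported) and from 1 to 795 for Old CR against Old ND (409 as reported). Without Old ND replicate 4 or 5, Fn1 passed for Old ND against Young ND (adjusted p = 0.03 and 0.0441), and without Young ND replicate 4 or 5 Thbs3 did (0.0369 and 0.0397). Over the 10 fits that left out 1 array of these groups, the Fn1 difference ranged from -0.52 to -0.22, with adjusted p up to 0.226. That of Thbs3 ranged from -0.41 to -0.30, with adjusted p up to 0.162. No paired analysis was possible because the replicate numbers here follow accession order and the labels do not say which mice shared a collection day.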
